A study of Mus musculus with 3 samples.

Results

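Gtf2i, Gtf2ird1 and Gtf2ird2 are the 3 genes of the TFII-I family, and their transcripts were measured in adult mouse cortex in which 1 Gtf2i allele was altered. The members are all gene probes on the arrays whose accession matched the RefSeq symbol of a family gene, which gave 3 of 15724 named genes and 7 of 41174 gene probes: 2 for Gtf2i, 3 for Gtf2ird1 and 2 for Gtf2ird2. The groups were cortex of Gtf2i(+/Δex2) mice, heterozygous for an allele whose name gives exon 2 of Gtf2i as deleted, and cortex of WT (+/+) mice. All animals were 16 weeks old and on a mixed background of 98.4% C57BL/6J and 1.6% 129Sv/CD1. Each of 3 Agilent 2-colour arrays of 60-mer probes carried a pool of total RNA from 3 to 5 mutant mice in 1 dye and a pool from 3 to 5 wild-type mice in the other, with the mutant RNA labelled with Cy3 on replicates 1 and 3 and with Cy5 on replicate 2. Whether the arrays shared pools is not in the labels, so errors and p-values cover the spread of these arrays only, and that spread may be technical.

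Gtf2i encodes TFII-I, a transcription factor that binds initiator elements and E-boxes at promoters and that also acts in the cytoplasm, where Bruton's tyrosine kinase phosphorylates it. Gtf2ird1 and Gtf2ird2 are related genes that share its helix-loop-helix-like I-repeats. In mouse the family lies together on chromosome 5, in the segment that corresponds to the human interval deleted in Williams-Beuren syndrome, and Gtf2i is expressed widely in brain neurons. GTF2IRD1 is reported to repress its own promoter through GGATTA-type sites. GTF2IRD2 carries a C-terminal part derived from a transposase.

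Values are the deposited normalized intensities of each channel, which are linear and have no fixed unit, and log2 ratios of mutant over wild type on the same array. A log2 ratio of -1 is a signal at 50% of wild type. The direction is likely rather than certain. It rests on sample titles that name the mutant first and on the deposited readme, in which the fold is the test sample over the control. Pro25G control spots had median ratios of 4.51 and 4.58 on replicates 1 and 3 and -4.54 on replicate 2, so replicate 2 ran with the dyes swapped, but the dye of that oligo is not in the sources used here and the spots do not show which channel is the mutant. If the channels were the other way round, every sign below would turn, higher and lower would change places, and each share of wild type would become its inverse: 139% and 124% for the Gtf2i probes, 71.7% for Gtf2ird1 A_51_P381522 and 112% for Gtf2ird2 A_51_P346045. Gtf2i itself was not used to set it.

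The start regions of the 3 genes are shown because the Gtf2ird1 protein is reported to act on its own promoter. Any part of these sequences in the array ratios was not tested. Each is 250 bases before to 50 bases after the RefSeq start on GRCm38.p6, written 5′ to 3′ along the gene, with GGATTA on either strand (TAATCC is its complement) and the palindromic E-box CACGTG in capitals. The sources used here do not place the array probes within the transcripts, and a probe that lies outside exon 2 is no check of the labelled genotype.
Gtf2i, chr5:134314711-134315010, minus strand: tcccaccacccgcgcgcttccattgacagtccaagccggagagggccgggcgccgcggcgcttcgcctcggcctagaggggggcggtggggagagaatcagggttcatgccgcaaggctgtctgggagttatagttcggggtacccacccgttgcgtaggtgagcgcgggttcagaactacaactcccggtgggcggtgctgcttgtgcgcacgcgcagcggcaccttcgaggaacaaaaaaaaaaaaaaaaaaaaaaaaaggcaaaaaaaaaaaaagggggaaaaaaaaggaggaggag
Gtf2ird1, chr5:134456667-134456966, minus strand: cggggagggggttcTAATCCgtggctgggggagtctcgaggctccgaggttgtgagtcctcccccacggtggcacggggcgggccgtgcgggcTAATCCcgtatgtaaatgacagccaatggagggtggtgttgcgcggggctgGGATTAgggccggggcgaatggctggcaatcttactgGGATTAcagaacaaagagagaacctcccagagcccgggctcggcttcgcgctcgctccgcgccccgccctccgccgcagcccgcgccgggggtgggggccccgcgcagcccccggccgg
Gtf2ird2, chr5:134183788-134184087, plus strand: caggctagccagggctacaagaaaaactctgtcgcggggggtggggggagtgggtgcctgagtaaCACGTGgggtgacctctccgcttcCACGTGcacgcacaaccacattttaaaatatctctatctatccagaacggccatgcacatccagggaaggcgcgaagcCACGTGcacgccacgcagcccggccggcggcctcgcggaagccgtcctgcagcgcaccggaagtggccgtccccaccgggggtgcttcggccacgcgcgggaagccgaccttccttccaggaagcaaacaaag
The Gtf2ird1 window held 4 copies of GGATTA, 2 on each strand, between 236 and 69 bases before the start, and 0 copies of CACGTG. Of 32851 start windows of the same length, 7.06% held GGATTA at least once, 8 held 3 or more copies and 2 held 4 or more. The Gtf2ird2 window held 3 copies of CACGTG and 0 of GGATTA; 7.15% of windows held CACGTG, and 29 held 3 or more copies. The Gtf2i window held neither. The motifs did not overlap. The windows were 57.7% (Gtf2i), 70.3% (Gtf2ird1) and 63.7% (Gtf2ird2) G or C, against a median of 52.7% over all windows. These matches describe the sequence and do not show binding.

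All 7 probes were flagged reliable on all 3 arrays, a flag that the authors gave to spots with foreground over 2 times background, and all were called present in both channels. Each stood once on the array, at a signal at least 3.85 times the median of the negative controls in every channel. The limma fit over 27530 tested probes called 33.9% of them at an adjusted p under 0.05, with 18.9% lower and 15.0% higher in the mutant, so a call by itself is common on these arrays. Ratios of the tested probes correlated between arrays at r = 0.82 (replicates 1 and 2), 0.78 (replicates 1 and 3) and 0.62 (replicates 2 and 3), which are correlations across probes and not across independent samples. The median ratio of all tested probes was 0.00 (log2).

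Gtf2i was lower in the mutant cortex at both of its probes and on every array. At probe A_52_P442585 the mutant channel read 304, 327 and 312 on replicates 1, 2 and 3, and the wild-type channel read 418, 444 and 447. Every mutant value lay below every wild-type value. The log2 ratios were -0.46, -0.44 and -0.52, with a mean of -0.47 ± 0.04 (SD, n = 3; limma adjusted p = 0.0026). The mutant signal was thus 72.0% of wild type, with a 95% interval from 67.3% to 77.0% in the same fit.

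At the other Gtf2i probe, A_51_P499905, the mutant channel read 1243, 1273 and 1385 and the wild-type channel 1578, 1611 and 1662. Here too the groups did not overlap, which held for 19.3% of tested probes on the lower side. The ratios were -0.34, -0.34 and -0.26, with a mean of -0.32 ± 0.05 (SD, n = 3; limma adjusted p = 0.00505). That is 80.4% of wild type, with an interval from 75.0% to 86.1%. Without replicate 1 this probe read -0.30 and was no longer called (limma adjusted p = 0.0559), while A_52_P442585 read -0.48 and stayed past the threshold (0.0278). Calls were fewer everywhere in that fit, 2409 of all 27530 tested probes against 9333 with all 3 arrays. Both intervals lie above 50% of wild type in the likely direction. With the channels turned they would run from 130% to 149% (A_52_P442585) and from 116% to 133% (A_51_P499905). With the negative control level of each channel subtracted, the signals were 65.6% of wild type at A_52_P442585 and 79.3% at A_51_P499905.

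**Figure D1:**
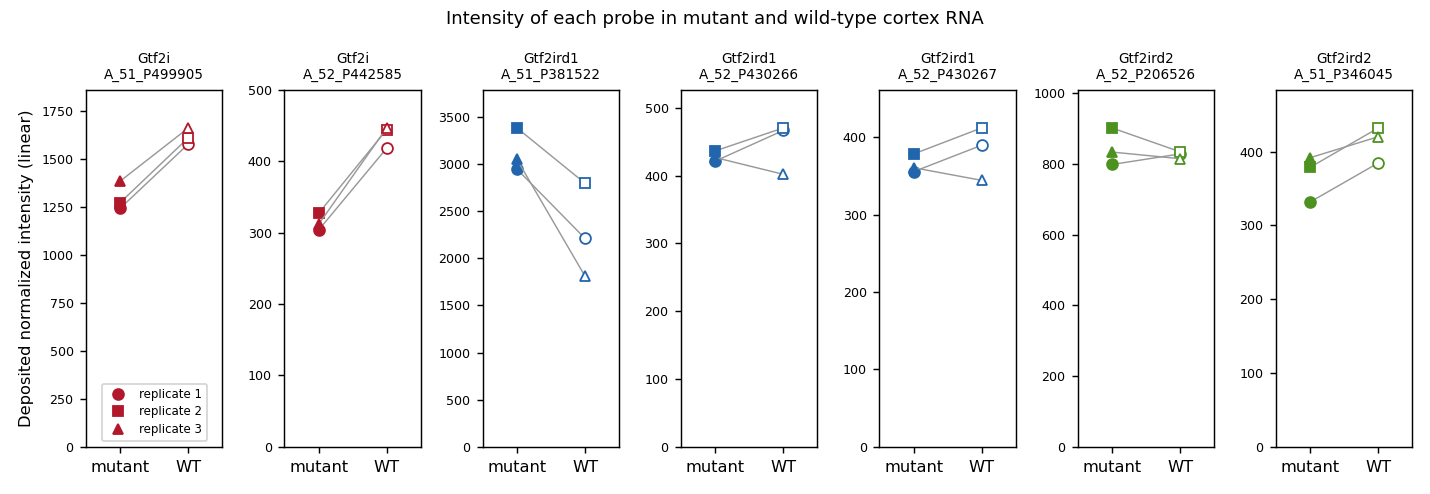
Deposited normalized intensity (linear axis from 0, its own scale in each panel) of the 7 probes in mutant (filled, left) and wild-type RNA (open, right). Marker shape gives the replicate and a grey line joins the channels of an array. Mutant values of both Gtf2i probes lie below all wild-type values, those of Gtf2ird1 probe A_51_P381522 lie above them, and the groups overlap at the other 4 probes.

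The Gtf2i probes differed in size though not in sign. A_51_P499905 read higher than A_52_P442585 by 0.12, 0.10 and 0.26 on the 3 arrays (log2 difference of ratios, mean 0.16 ± 0.08, SD). The exact sign-flip test gave p = 0.25, two-sided, which is the smallest value that 3 arrays allow. Over the 5 pairs of probes of a family gene the adjusted value was 0.312. A spread of 0.16 was ordinary: among 2776 genes with 2 tested probes the median spread was 0.14. Both probes were called lower at 10.1% of these genes.

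Averaged over its probes, Gtf2i read -0.40, -0.39 and -0.39 on replicates 1, 2 and 3. This average varied less than either probe. On replicate 3 the probes moved in opposite directions, to -0.26 at A_51_P499905 and -0.52 at A_52_P442585. Neither probe passed the test for a dye effect (limma adjusted p = 0.866 for A_51_P499905 and 0.803 for A_52_P442585), which called 0 of all tested probes (2409 at an unadjusted p under 0.05). That test sets replicate 2 against replicates 1 and 3, so dye and the samples of that array cannot be told apart. Not passing it does not show that a dye effect was absent. Among all tested probes, 2.62% lay at or below the mean ratio of A_52_P442585 and 7.42% at or below that of A_51_P499905. Against probes within 0.25 log2 units of its own brightness, those shares were 2.21% of 3348 probes and 14.5% of 1438 probes. A fall of the size seen at A_51_P499905 was therefore less rare among probes of like brightness.

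**Figure D2:**
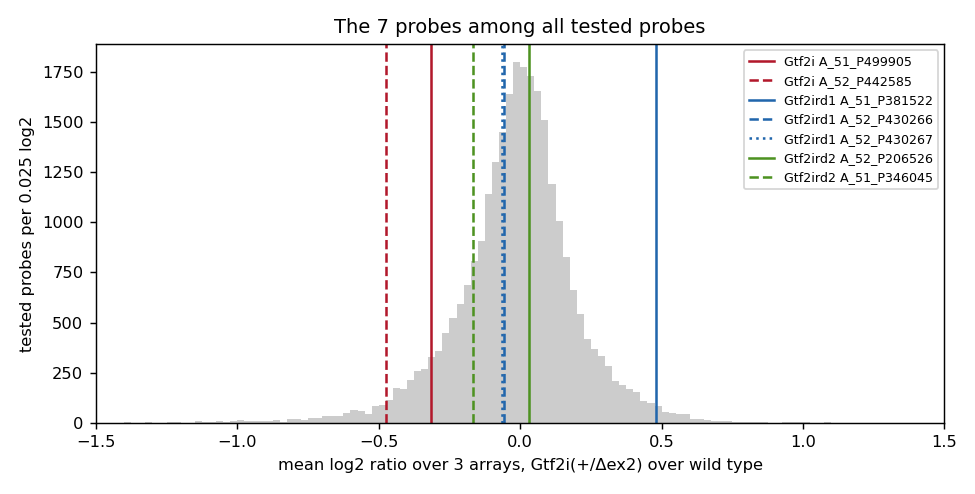
Histogram of the mean log2 ratio, mutant over wild type, of the 27530 tested probes (grey, probes per 0.025 log2), with a line for each of the 7 family probes. The Gtf2i lines stand in the lower tail at -0.47 and -0.32, Gtf2ird1 A_51_P381522 in the upper tail at 0.48, and the other 4 lines between -0.17 and 0.03.

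Gtf2ird1, which lies beside Gtf2i, was not read alike by its 3 probes. Probe A_51_P381522 rose: the mutant channel read 2945, 3381 and 3048 and the wild-type channel 2209, 2794 and 1809. All mutant values lay above all wild-type values, as they did at 13.0% of tested probes. The ratios were 0.41, 0.28 and 0.75 (mean 0.48 ± 0.25, SD, n = 3; limma adjusted p = 0.016). That is 140% of wild type, with an interval from 118% to 164%. The mutant values ranged less than the wild-type values, of which replicate 3 was the lowest. Without replicate 1 the ratio was 0.51 and no longer called (limma adjusted p = 0.0617), and without replicate 3 it was 0.34 and called. Those fits called 2409 and 9885 of all 27530 tested probes, against 9333 with all 3 arrays.

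The other 2 Gtf2ird1 probes did not pass. At A_52_P430266 the mutant channel read 421, 436 and 427 and the wild-type channel 467, 470 and 402; its ratios were -0.15, -0.11 and 0.09. A_52_P430267 read 355, 378 and 361 in the mutant channel and 390, 412 and 344 in the wild-type channel, with ratios of -0.13, -0.12 and 0.07. The groups overlapped at both. Their means were -0.06 ± 0.12 and -0.06 ± 0.11 (SD, n = 3; limma adjusted p = 0.478 and 0.401), with intervals from 87.1% to 106% of wild type for A_52_P430266 and from 87.2% to 105% for A_52_P430267.

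These 2 probes gave nearly the same reading as each other, with a mean difference of 0.01 ± 0.02 (log2, SD, n = 3). A_51_P381522 stood above A_52_P430266 by 0.56, 0.38 and 0.67 and above A_52_P430267 by 0.55, 0.40 and 0.69 on the 3 arrays. Both mean differences were 0.54 ± 0.14 (SD), and the exact sign-flip test again gave its smallest value, p = 0.25 (0.312 adjusted over the 5 pairs). The range over the probes of Gtf2ird1, 0.54, was above that of 86.4% of the 435 genes with 3 tested probes, whose median was 0.27. Of those 435 genes, 148 (34.0%) likewise had exactly 1 probe called. A level of Gtf2ird1 in the mutant therefore cannot be stated without naming the probe.

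All 3 Gtf2ird1 probes gave their highest ratio on replicate 3, as did 38.0% of tested probes. Their average was 0.04, 0.01 and 0.30 on replicates 1, 2 and 3. Several marker lists were also highest on that array. Choroid plexus markers were instead lowest there, averaging 0.12, 0.16 and 0.10 (1 of 3 called, higher). Their brightest probes summed to 3294, 3607 and 3305 in mutant and to 2861, 3021 and 2938 in wild-type RNA. Microglia markers averaged -0.07, -0.06 and -0.03, with 1 of 2 tested genes called lower and 1 higher. The 6 tested probes of Tcf7l2, Prkcd and Zic1, listed as thalamic markers, averaged 0.02, 0.07 and 1.03 (log2 ratio). Lef1, of the same list, was reliable on fewer than 2 arrays and was not tested. On replicate 3 the brightest probes of these 3 genes summed to 4840 in mutant and 1693 in wild-type RNA, against 5720 and 6577 in mutant and 5018 and 5411 in wild-type RNA on replicates 1 and 2. None of the 3 was at 0, and 1 of them was called (higher). Striatal markers averaged -0.20, -0.21 and 0.12 (1 of 4 called, lower), oligodendrocyte markers -0.05, -0.12 and 0.11 (1 of 3 called, higher), and blood markers -0.49, -0.53 and -0.07 (3 of 3 called, lower). On replicate 3 the sums of the brightest probes went against the sign of these averages. They were lower in mutant RNA for striatal (9750 against 10654) and oligodendrocyte markers (36326 against 40172), and higher for blood markers (16324.4 against 15968.5). The part of these markers in the Gtf2ird1 reading was not tested. Measured without replicate 3, A_51_P381522 was called higher (0.34, limma adjusted p = 0.00202), and the other 2 probes both read -0.13 and did not pass (0.0957 and 0.0931). That fit does not test the part of the markers, since striatal and blood markers also differed on replicates 1 and 2.

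**Figure D3:**
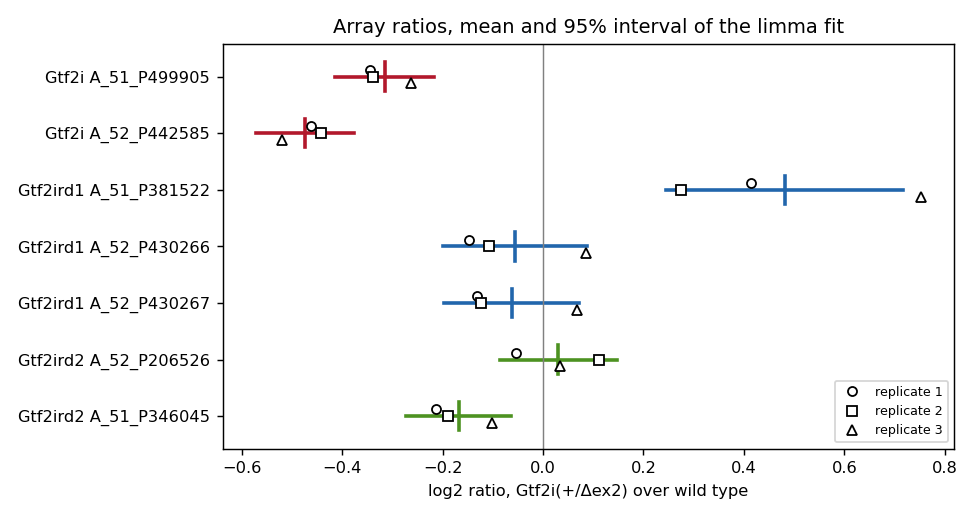
log2 ratio, mutant over wild type, of each family probe on each array (open markers by replicate), with the mean (vertical bar) and 95% interval of the limma fit (horizontal line). Replicate 3 gave the highest ratio at the 3 Gtf2ird1 probes, and the intervals of 3 probes include 0.

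Gtf2ird2, on the far side of Gtf2i, fell slightly at 1 probe and did not pass at the other. Probe A_51_P346045 read 332, 379 and 392 in the mutant channel and 385, 432 and 420 in the wild-type channel, so the groups overlapped across arrays although the mutant was lower within each array. The ratios were -0.21, -0.19 and -0.10, with a mean of -0.17 ± 0.06 (SD, n = 3; limma adjusted p = 0.0314). That is 89.0% of wild type, with an interval from 82.8% to 95.7%. This small fall lost its call without replicate 1 (-0.15, limma adjusted p = 0.237), without replicate 2 (-0.16, 0.0875), with replicates 1 and 2 averaged as 1 sample (-0.15, 0.118), and with the 6 channels fitted as unpaired samples (-0.19, 0.252). In that order, those fits called 2409, 7053, 5120 and 2790 of all 27530 tested probes, against 9333 as reported.

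Gtf2ird2 probe A_52_P206526 read 799, 902 and 834 in the mutant channel and 829, 835 and 815 in the wild-type channel. Its ratios were -0.05, 0.11 and 0.03, with a mean of 0.03 ± 0.08 (SD, n = 3; limma adjusted p = 0.637) and an interval from 94.2% to 111% of wild type. Without replicate 2 it read -0.01. The 2 probes differed by 0.16, 0.30 and 0.13 on the 3 arrays (mean 0.20 ± 0.09, SD; exact sign-flip p = 0.25). Of the 2776 genes with 2 tested probes, 39.9% had exactly 1 probe called, as Gtf2ird2 did.

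Both Gtf2i probes lay below every Gtf2ird1 and Gtf2ird2 probe on each of the 3 arrays, or above them all if the channels were turned. Between the paralogues the order depended on the probe. Gtf2ird1 A_51_P381522 lay above both Gtf2ird2 probes on every array, while the means of the other 2 Gtf2ird1 probes, both -0.06, lay between those of the Gtf2ird2 probes, -0.17 and 0.03. The lower Gtf2i probe and the higher Gtf2ird1 probe stood 0.88, 0.72 and 1.27 apart on replicates 1, 2 and 3 (log2).

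Along chromosome 5 the family members stand in the order Gtf2ird2, Ncf1, Gtf2i, Gtf2ird1 in RefSeq, with Ncf1, a subunit of the phagocyte NADPH oxidase, between the first 2 family genes. Of 9 listed neighbours 8 had a tested probe, and 2 were called lower and 0 higher in the limma fit by their probe with the smallest p, against 23.6% lower and 17.1% higher among all 12721 named genes. They were Rfc2, a subunit of the clamp loader of DNA replication (-0.18 ± 0.07), whose other probe was called higher (0.23), and Rcc1l, a guanine nucleotide exchange factor of mitochondria (-0.14 ± 0.03; SD, n = 3). Lat2 (0.12 ± 0.08) and the translation initiation factor gene Eif4h (0.09 ± 0.02) did not pass, and the tested probe of Ncf1 read -0.06. That Ncf1 probe was dim, at 130, 139 and 142 in mutant and 138, 146 and 143 in wild-type RNA. Negative control medians lay between 72.3 and 81.4. The median of the list was -0.02, and that of all named genes was -0.02. The direction of these calls was not stable. With a dye term in the limma fit, 0 were lower and 2 were higher, Lat2 (0.14) and Rfc2 by its other probe (0.19). Rfc2 by that probe was also the single call, higher, without replicate 2 (0.32) and with replicates 1 and 2 averaged as 1 sample (0.24). In the limma fit without replicate 1, 0 of the 8 were called (1 at an unadjusted p under 0.05), and without replicate 3, 0 (3 unadjusted). Of all 27530 tested probes, those fits called 2409 (without replicate 1) and 9885 (without replicate 3), against 9333 with all 3 arrays.

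**Figure D4:**
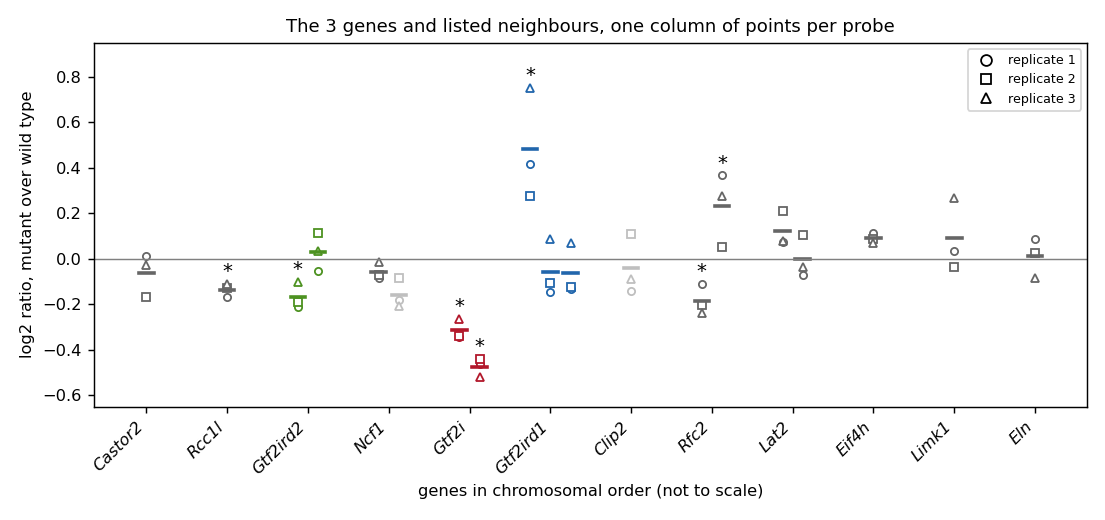
log2 ratio, mutant over wild type, of every probe of the 3 family genes and 9 listed neighbours, in chromosomal order and not to scale. Each column of points is a probe, marker shape gives the replicate, the bar is the mean, a star marks a limma adjusted p under 0.05, and the palest points are probes that were not tested. The Gtf2i probes are the lowest of the tested probes and Gtf2ird1 A_51_P381522 is the highest.

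The subunits of the general transcription machinery, with which TFII-I shares its name, were called about as often as other genes. Of 31 listed genes 23 had a tested probe, and 2 fell, 6 rose and 15 did not pass in the limma fit. The share called was 34.8%, near the 40.7% of all named genes. Taf5, a subunit of TFIID, rose in mutant RNA by 0.28 ± 0.04, Gtf2e1, of TFIIE, by 0.23 ± 0.07, and Ccnh, the cyclin of the TFIIH kinase, by 0.20 ± 0.03 (log2 ratio, SD, n = 3). Another Ccnh probe read -0.10. Ercc3, a helicase of TFIIH, fell by 0.21 on the log2 scale. The median of the list was 0.02. Without replicate 1, 0 of the 23 were called by limma (6 at an unadjusted p under 0.05). Calls were fewer everywhere in that fit, 2409 of all 27530 tested probes against 9333 with all 3 arrays.

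Genes for reported partners, kinases and targets of TFII-I went both ways. Of 25 listed genes 21 had a tested probe, and 5 fell, 3 rose and 13 did not pass in the limma fit, a share called of 38.1%, again near the 40.7% of all named genes. The deacetylase gene Hdac2 rose by 0.44 ± 0.07. The ER chaperone gene Hsp90b1 read -0.47 ± 0.11 at 1 probe and -0.04 at another, and the kinase gene Mapk3 read -0.40 ± 0.09 (log2 ratio, SD, n = 3). Btk, the kinase that phosphorylates TFII-I, read 0.03 and did not pass. Its signal was dim, at 147, 141 and 139 in mutant and 142, 136 and 139 in wild-type RNA. Negative control medians lay between 72.3 and 81.4, so this ratio does not show an unchanged level. The median of the list was -0.07. Without replicate 1 the limma fit called 5 of the 21, 3 lower and 2 higher. It then called 2409 of all 27530 tested probes, against 9333 with all 3 arrays.

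The genes whose ratios were most like the mean of the Gtf2i probes over the 3 arrays were Zfp445, Pip5k1a, Fam160a2, Sec14l1 and Grpel1. Their root mean square differences from that mean were 0.013 to 0.020 log2 units. The genes were drawn from 15595 probes of named genes that were reliable on all arrays, of which 104 lay within 0.05. Zfp445, the nearest, read -0.40, -0.41 and -0.38. The Gtf2i probes themselves stood 0.12, 0.10 and 0.26 apart on the 3 arrays, so their mean was a reading that neither probe gave. Likeness over 3 ratios is a description of these arrays.

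As for the tissue, 7 of 7 cortical and neuronal markers, among them Tbr1, Neurod6, Slc17a7, Snap25 and Gad1, were detected, and their 10 tested probes averaged -0.01, -0.05 and -0.03 on replicates 1 to 3. These averages cover both directions, since 3 of the 7 genes were called lower and 2 higher. The brightest probes of the 7 genes summed to 74214, 69237 and 84163 in mutant and to 54853, 72082 and 61943 in wild-type RNA on replicates 1 to 3. By these sums the mutant was higher on replicates 1 and 3, where its RNA was labelled with Cy3, and lower on replicate 2. The part of the dye in this was not tested. Astrocyte marker probes averaged -0.27, -0.23 and -0.26, with 1 of 2 tested genes called lower and Gfap not tested. The brightest astrocyte probes summed to 11527, 13609 and 9777 in mutant and to 11052, 11326 and 10073 in wild-type RNA. By these sums the mutant was higher on replicates 1 and 2 and lower on replicate 3. The part of the cortical, astrocyte and blood markers in the Gtf2i reading was not tested. Because the samples are bulk RNA, fewer cells that express a gene and less RNA per cell cannot be told apart.

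**Figure D5:**
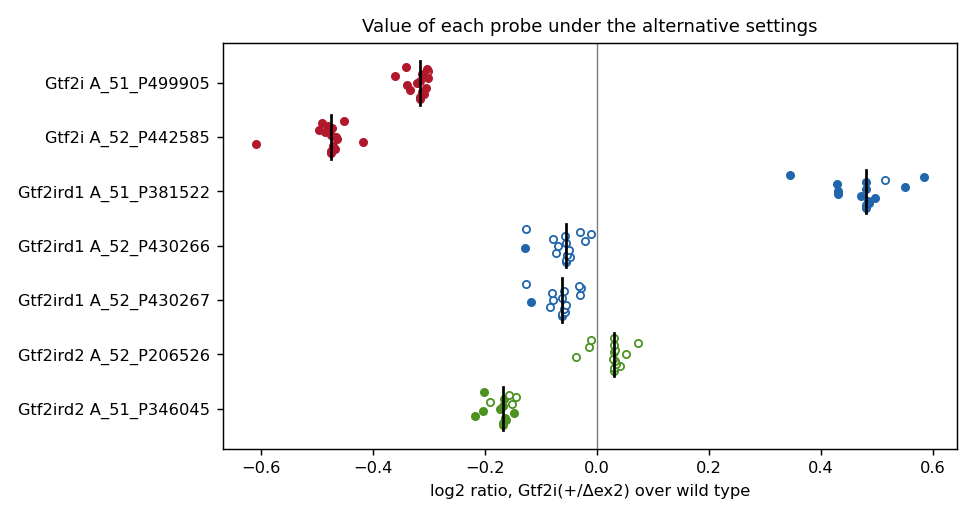
log2 ratio, mutant over wild type, of each family probe under the 15 alternative settings (points, filled where the limma adjusted p was under 0.05) and as reported (black bar). Both Gtf2i probes stay below 0 and Gtf2ird1 A_51_P381522 stays above 0 under all 15, and Gtf2ird2 A_52_P206526 falls on both sides of 0.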

How the data were processed

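Per the deposited readme, spots were quantified with GenePix, background was subtracted and intensities were normalized by the authors by a method that the sources used here do not name. The authors deposited a linear intensity per spot and channel, corrected for the dye swap, a log2 ratio with repeated spots collapsed, and a score per spot, a signed fold in which ratios under 1 become minus their inverse. The value table of the series held the same score at every spot (medians -1.01, -1 and 1), and 0 of its columns were unused. Per the labels' protocols, 500 ng of RNA with an integrity number of at least 7 was amplified by in vitro transcription.

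From the deposited intensities, 41534 gene spots of 44290 were averaged to 41174 probes, and accessions were matched without versions to RefSeq (GRCm38.p6), which named 21445 probes. Probes reliable on at least 2 arrays were tested. limma 3.58.1 (lmFit and eBayes, R 4.3.3) tested each probe's mean log2 ratio against 0, with Benjamini-Hochberg adjustment over all 27530 tested probes. Arrays already pair the genotypes, so the unpaired fit is an alternative. Precision is limited by the number of arrays. The fit was tested on simulated data. A gene in a list counts by its smallest-p probe, and the 4 genes with the smallest p were named per list at most. Ncf1, Btk and the markers named were chosen after their values were seen. A few listed genes are not reported here by name, though counts include them. The members and lists were chosen with earlier results of these data known. Start windows came from RefSeq (3 of 3 genes matched). Python 3.11.15 with pandas 2.3.3 and matplotlib 3.10.9 drew the figures.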

Additional observations from a re-analysis of the deposited data

How the results depend on the processing

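Results were recomputed under 15 alternatives (limma adjusted p throughout). Gtf2i A_52_P442585 stayed lower and called under all 15, from -0.61 (negative controls subtracted) to -0.42, and A_51_P499905 stayed lower under all 15, from -0.36 to -0.30, and lost its call without replicate 1. Leaving out each replicate gave -0.49 to -0.45 for A_52_P442585, -0.34 to -0.30 for A_51_P499905, 0.34 to 0.58 for Gtf2ird1 A_51_P381522, -0.13 to -0.01 for A_52_P430266, -0.13 to -0.03 for A_52_P430267, -0.20 to -0.15 for Gtf2ird2 A_51_P346045 and -0.010 (without replicate 2) to 0.073 for A_52_P206526. Gtf2ird1 A_51_P381522 lost its call in 1 of 15, without replicate 1.

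Array weights, which put most weight on replicate 1 (5.84, against 0.373 and 0.459), called Gtf2ird1 A_52_P430266 (-0.13, adjusted p = 0.0128) and A_52_P430267 (-0.12, 0.0126) lower and turned the uncalled Gtf2ird2 A_52_P206526 to -0.038. They raised the count of called probes to 18617, of partner and target genes to 14, of general transcription genes to 17 and of neighbours to 5 (2 lower, 3 higher). With the 6 channels as unpaired samples, without the array as a replicate block, Gtf2ird2 A_51_P346045 was not called (-0.19, 0.252), A_52_P206526 read -0.015, and the counts were 2790 probes, 3 partner and target genes, 0 general transcription genes (4 at an unadjusted p under 0.05) and 0 neighbours (1 unadjusted). With replicates 1 and 2 averaged, Gtf2ird2 A_51_P346045 was not called (-0.15, 0.118), and the counts were 5120 probes, 2 general transcription genes (both higher) and 1 neighbour (higher, against 2 lower and 0 higher as reported). With a dye term, 2 neighbours were called, both higher. With no filter on reliability 1 neighbour was called, lower. Leaving out a replicate gave 2409 (without replicate 1) to 9885 called probes, 5 to 10 partner and target genes, 0 to 8 general transcription genes and 0 to 1 neighbours (the 1, without replicate 2, higher). The causes were not tested. Differences between probes of a gene kept their sign under both alternatives run. No exact test over 3 arrays can go below p = 0.25. The dim probe A_52_P442585, at 3.85 times the negative controls, was the member whose size moved most with the background subtracted.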
